A study of Mus musculus with 7 samples.

Results

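In undifferentiated mouse embryonic stem cells (ESCs), 11956 of the 22817 listed Oct4 peaks never held a peak of Oct1, which is 52.4% (95% interval 51.7% to 53.0%). These Oct4-only sites were chosen by overlap alone: each shared not a single base pair with any peak of the 3 Oct1 lists, which came from undifferentiated ESCs and from days 3 and 6 of mesodermal differentiation. A further 10490 Oct4 peaks (46.0%) touched an Oct1 peak of undifferentiated ESCs and are called shared here. The remaining 371 (1.63%) lacked Oct1 in ESCs but overlapped an Oct1 peak at day 3 or day 6. The class sizes follow from the rule and are a description of the lists.

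All cells were of the parental genotype. Chromatin immunoprecipitation with sequencing (ChIP-seq) was made with an Oct4 antibody in ESCs, and with 1 Oct1 antibody in ESCs, at day 3 and at day 6. For mesoderm, per the series' design text, cells received Bmp4 for 2 days, followed by 4 days in Rspo3 plus LDN-193189 (a BMP receptor inhibitor). Each group was 1 library and no Oct4 list from differentiating cells was used here, so no difference below can be set against replicate error, and whether Oct4 stays at these sites during differentiation was not measured here. Intervals cover the counting of peaks only.

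Oct4 (gene Pou5f1) and Oct1 (gene Pou2f1) are POU-domain proteins. A POU domain joins a POU-specific domain and a POU homeodomain by a flexible linker, and the pair can read the octamer ATGCAAAT in DNA. Oct4 is required for the pluripotent state and often binds next to Sox2, whose family reads motifs such as ACAATGG, whereas Oct1 is made in most cell types and its absence is tolerated by undifferentiated ESCs.

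The sequences that bear on the comparison are promoters lying inside the peaks, since RefSeq windows of 300 bp (250 bp before to 50 bp after a transcription start, GRCm38.p6) could be read. A window lay wholly inside a member peak 137 times, covering 124 genes and 119 peaks, and wholly inside a shared peak 431 times. The first 3 windows below are examples from higher-scored member peaks, with every CG dinucleotide in capitals: Mc3r (a melanocortin receptor, chr2:172248242-172248541, plus strand), Inpp5b (an inositol phosphatase, chr4:124741600-124741899, plus strand) and Nkd1 (an antagonist of Wnt signalling, chr8:88527383-88527682, plus strand).
Mc3r: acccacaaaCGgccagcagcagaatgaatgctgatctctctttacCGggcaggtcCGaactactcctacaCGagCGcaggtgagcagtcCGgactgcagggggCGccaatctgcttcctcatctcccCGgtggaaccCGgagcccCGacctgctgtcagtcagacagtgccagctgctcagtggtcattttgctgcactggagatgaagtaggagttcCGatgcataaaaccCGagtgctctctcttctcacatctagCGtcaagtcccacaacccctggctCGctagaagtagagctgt
Inpp5b: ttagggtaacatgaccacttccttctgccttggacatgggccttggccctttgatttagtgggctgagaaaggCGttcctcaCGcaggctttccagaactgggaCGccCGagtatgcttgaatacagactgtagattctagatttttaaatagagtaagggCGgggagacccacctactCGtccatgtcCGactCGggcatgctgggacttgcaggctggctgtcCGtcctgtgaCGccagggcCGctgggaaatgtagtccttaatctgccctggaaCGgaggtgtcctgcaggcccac
Nkd1: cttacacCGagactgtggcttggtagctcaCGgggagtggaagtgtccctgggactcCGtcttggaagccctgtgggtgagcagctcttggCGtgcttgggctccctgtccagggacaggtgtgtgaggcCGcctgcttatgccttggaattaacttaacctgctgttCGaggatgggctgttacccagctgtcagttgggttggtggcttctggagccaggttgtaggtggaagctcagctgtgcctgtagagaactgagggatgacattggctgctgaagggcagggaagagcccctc
The Oct4 peaks around them carried scores of 494, 300 and 229, where the score is the authors' own whole number per peak, without a stated unit. The 3 windows held 14, 12 and 6 CG dinucleotides, against a median of 6 and a 75th percentile of 9 over all member windows.

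For contrast, the next windows are from shared peaks and carry a complete octamer, here in capitals and read as ATTTGCAT because it lies on the other strand. They belong to Zfp42, also called Rex1, a marker of naive pluripotency (chr8:43306960-43307259, minus strand, peak score 1149), and to Pipox, a peroxisomal oxidase (chr11:77893823-77894122, minus strand, peak score 1947). The last window is 1 of the 3 member windows that held ATGCAAA, the first 7 letters of the octamer, and belongs to Agt, the gene of angiotensinogen (chr8:124569657-124569956, minus strand, peak score 74). The letters lie on the other strand and are again in capitals.
Zfp42: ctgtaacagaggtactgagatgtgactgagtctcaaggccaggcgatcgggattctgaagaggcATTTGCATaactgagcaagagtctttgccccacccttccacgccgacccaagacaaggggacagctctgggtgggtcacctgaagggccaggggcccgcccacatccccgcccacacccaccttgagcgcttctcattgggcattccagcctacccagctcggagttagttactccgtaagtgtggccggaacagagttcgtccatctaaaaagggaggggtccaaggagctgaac
Pipox: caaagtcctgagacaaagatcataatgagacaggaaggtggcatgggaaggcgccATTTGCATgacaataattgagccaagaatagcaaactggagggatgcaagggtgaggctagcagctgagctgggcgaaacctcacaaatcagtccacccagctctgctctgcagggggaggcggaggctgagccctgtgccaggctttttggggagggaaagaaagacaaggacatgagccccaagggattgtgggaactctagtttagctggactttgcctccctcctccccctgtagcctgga
Agt: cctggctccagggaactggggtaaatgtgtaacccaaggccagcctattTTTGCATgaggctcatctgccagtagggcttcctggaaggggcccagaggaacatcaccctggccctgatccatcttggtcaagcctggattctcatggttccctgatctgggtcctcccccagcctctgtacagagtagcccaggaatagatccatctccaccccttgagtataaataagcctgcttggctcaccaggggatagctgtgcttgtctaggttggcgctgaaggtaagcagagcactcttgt

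No promoter inside a member peak held an octamer. The search took ATGCAAAT and ATGCTAAT on both strands and found 0 of 137 member windows, which allows a share of up to 2.19% (3 counts of the total; the exact 95% limit is 2.66%), against 21 of 431 shared windows (4.87%, 3.04% to 7.35%). Of all 32851 RefSeq promoter windows, 2.62% held one. The difference, members minus shared, was -4.87 percentage points (-7.33 to -1.68). Within each of the 4 quartiles of Oct4 score its interval included 0. Widening the search to the 333 windows that touched a member peak at any base also found 0, which allows up to 0.901% by the same 3 counts (exact 95% limit 1.10%), while 33 of 814 windows touching a shared peak held one (4.05%). The 7 letters ATGCAAA, a part of the longer motif, occurred in 3 member windows (2.19%), those of Pik3cd, Agt and C77080, against 32 shared windows (7.42%) and 4.63% of all. These are matches of letters in a window at a gene start, and most members lie elsewhere, so what sequence the other members hold was not read.

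Base composition was almost the same in member and shared promoters, and unlike that of promoters at large. Every one of the 137 member windows had between 50% and 65% G and C (lowest 50%, median 57.3%, highest 63.0%), as had 424 of the 431 shared windows (98.4%), against 42.4% of all windows, whose median was 52.7%. Among all windows of that G and C range, 1.95% held an octamer. CG dinucleotides were fewer in member windows: the median was 6 (25th to 75th percentile 4 to 9) in member windows, 10 (6 to 17) in shared windows and 20 in the 24 windows inside peaks that gained Oct1 later. Windows with at most 5 CG made up 43.8% of the member windows and 21.6% of the shared ones, a difference of 22.2 percentage points (13.2 to 31.3), beside 43.6% of all windows and 26.9% of windows with 50% to 65% G and C. Within score quartiles 1, 2 and 4 the interval of this difference included 0. In the strongest quartile, which held 18 of the member windows and 253 of the shared ones, the difference was 2.06 (-12.2 to 25.5). No member window held more than 20, whereas 13.9% of shared windows and 24.8% of all windows did. The part that base composition plays in which peaks were listed was not tested.

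**Figure D1:**
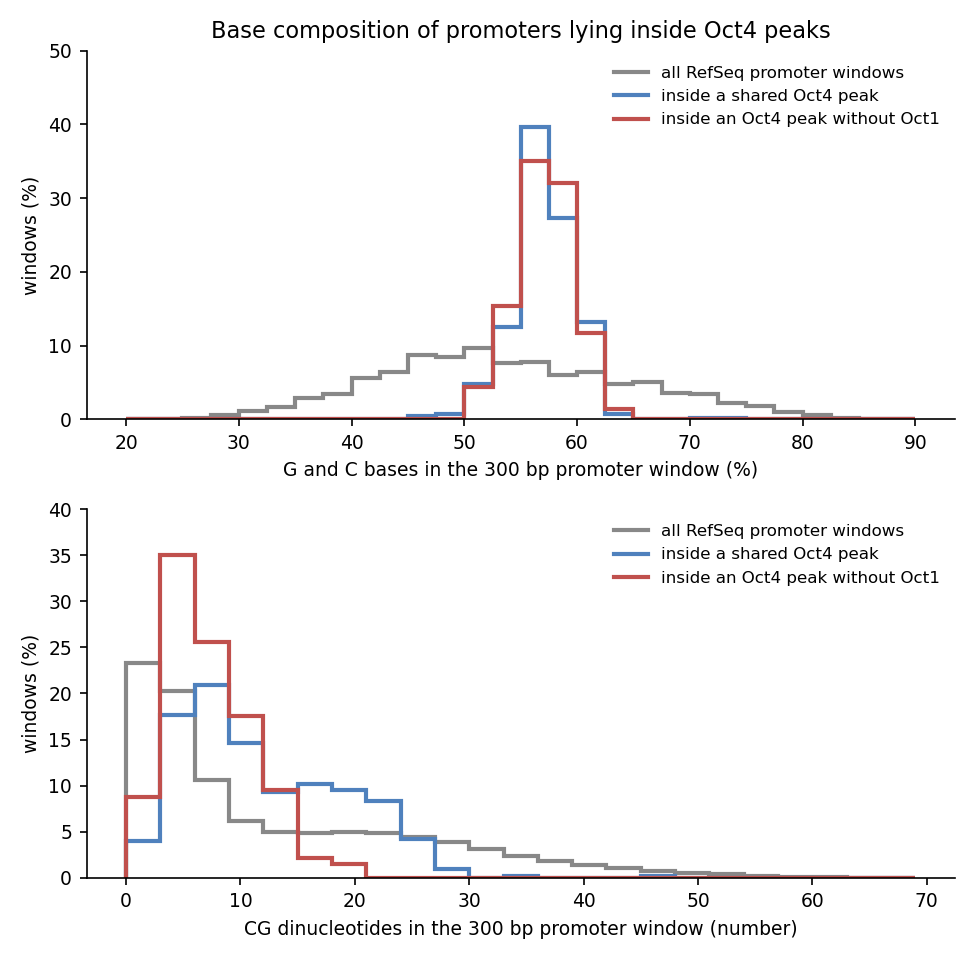
Share of promoter windows (y axis, %) by their G and C bases (upper panel, %, bins of 2.5) and by their number of CG dinucleotides (lower panel, bins of 3), for 137 windows inside member peaks (red), 431 inside shared peaks (blue) and all 32851 windows (grey). Both peak classes crowd between 50% and 65% G and C, and member windows stop at 20 CG dinucleotides.

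Other promoter letters were searched on both strands after the octamer result had been seen. The ETS site CCGGAAG occurred in 3 member windows (2.19%) and 62 shared windows (14.4%), against 8.86% of all, a difference of -12.2 percentage points (-16.1 to -7.16). The other searches gave differences whose intervals included 0: Sox sites (ACAATGG or ACAAAGG) in 7.30% against 9.28%, GGGCGGG in 19.0% against 24.1%, CCAAT in 32.1% against 39.7%, TATAAA in 5.84% against 6.73% and AAGATGGC in 2.19% against 3.25%. Of these letter strings, the Sox pair was in 9.28% of all windows, GGGCGGG in 25.6%, CCAAT in 37.4%, TATAAA in 13.6% and AAGATGGC in 2.75%. None of these strings contains another of them or an octamer, and both CCGGAAG and GGGCGGG include a CG dinucleotide.

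Members were on the whole the lower-scored Oct4 peaks. Their scores ran from 23 over a median of 125 (25th to 75th percentile 91 to 159) to 4485, while shared peaks had a median of 169 (125 to 229) and reached 56404. Of the members, 37.1% (36.3% to 38.0%) exceeded the median of the Oct4 list, which was 143, against 64.8% of shared peaks, a difference of -27.6 percentage points (-28.9 to -26.4). The peaks that gained Oct1 only later resembled the members, with a median of 127. When the Oct4 list was cut into 10 classes of equal size by score, members made up 77.5% of the lowest class (scores 23 to 76) and 21.2% of the highest (268 and above), with each class below the one before it. Still, 484 members (4.05%) stood in the top 10% of the list, and 452 protein-coding genes (2.07%) were nearest to one of these. The members covered 7.82 Mb and held 42.1% of the summed score.

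**Figure D2:**
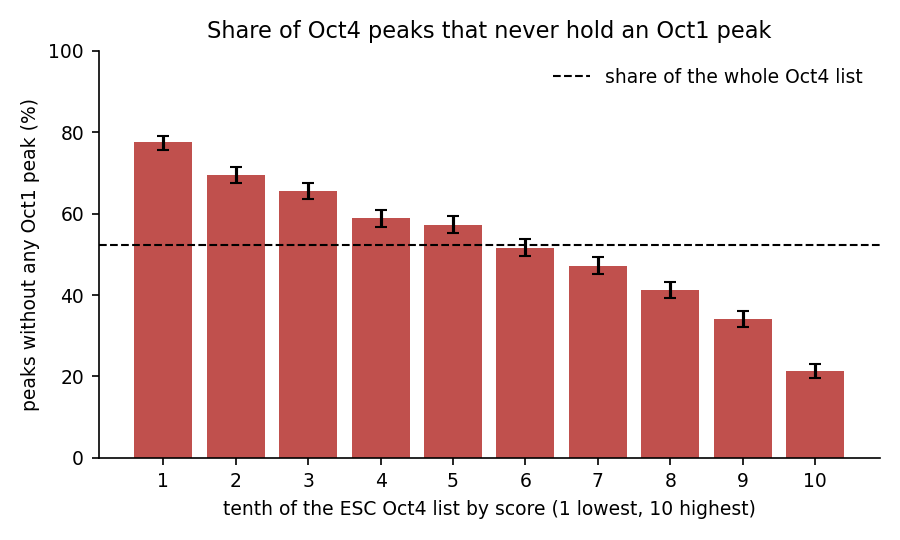
Share of Oct4 peaks without any Oct1 peak (y axis, %) in 10 classes of the ESC Oct4 list ordered by the authors' score (x axis), with exact 95% intervals of the count and the share over the whole list (dashed, 52.4%). The share falls from 77.5% in the lowest class to 21.2% in the highest.

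Members were also narrower, and the gap was widest among strong peaks. Width is tied to the rule, since a wider peak has more bases that can overlap an Oct1 peak. How much of the difference comes from this was not tested. Their median width was 600 bp (540 to 710) against 690 bp (590 to 880) for shared peaks, and 37.9% against 61.2% were wider than the list's median of 640 bp, a difference of -23.3 percentage points (-24.5 to -22.0). When the list was cut into 4 classes of equal size by score (quartiles), the medians in the weakest were 600 and 630 bp for members and shared peaks. In the strongest they were 570 and 720 bp: shared peaks widened with score and members did not. Among the 74 members with a score above 400, 70.3% were at most 600 bp wide, against 27.8% of the 526 shared peaks above that score. No peak of any list was narrower than 500 bp.

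**Figure D3:**
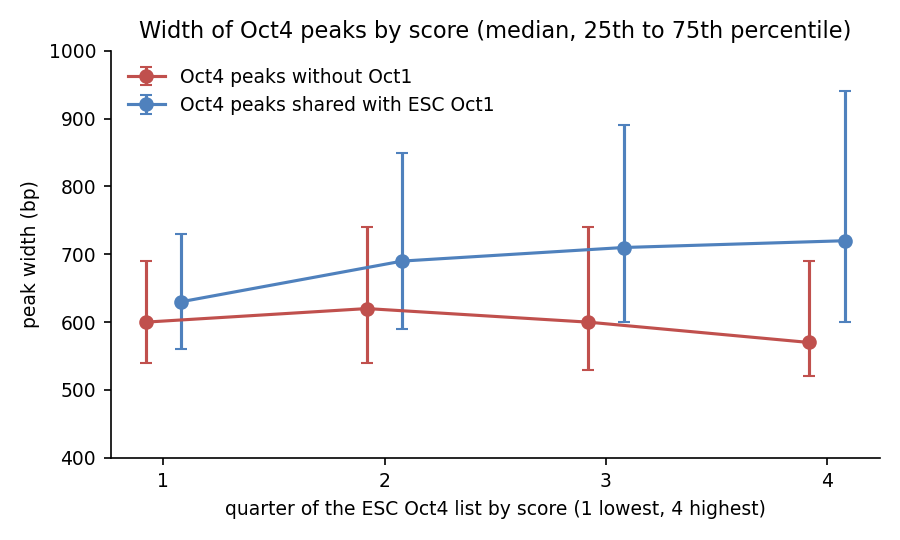
Peak width in bp (y axis; points are medians, bars run from the 25th to the 75th percentile) for member peaks (red) and shared peaks (blue) in each quartile of the ESC Oct4 list by score (x axis). Members go from a median of 600 bp in the weakest quartile to 570 bp in the strongest, shared peaks from 630 to 720 bp. Width is tied to the overlap rule that defines the classes.

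The strongest members lay near genes of varied kinds, among them Esrrb and Lefty1. The highest was inside Sfi1, which encodes a centrin-binding protein of the centrosome (chr11:3159801-3160320, score 4485, eighth of all Oct4 peaks). That locus held 3 members, with scores of 218, 733 and 4485, among 7 shared peaks of 520 to 5922. All of these lie above the list median of 143, and signal of the input libraries there was not examined. Next came sites inside Iqgap1 (1732), a scaffold of the actin cytoskeleton, Plekha4 (1044) and Arhgap21 (985), which encodes a GTPase-activating protein. The fifth, at 948, lay 1411 bp from Lefty1, which encodes a secreted inhibitor of Nodal (chr1:180933191-180934030, width 840 bp), and the nearest ESC Oct1 peak was 10.11 kb away. The only other Oct4 peak nearest to Lefty1 was a shared one of score 217, so here the Oct4-only site was the higher of the pair. Sites near Cnpy1 and Caly followed at 924 each, and a site inside Sars, which encodes a seryl-tRNA synthetase, had 781. The others of the top 20 were at Wdr7 (765), Lmod1 (749), Sfi1 again (733), Dlgap2 (658), St6galnac3 (649), Vmn1r77 (612), Btd (587), Zfp993 (524), Tns3 (524), Mroh2a (517) and Olfr1258 (509), and the Esrrb site of 571 described next. Of the top 20, 17 were narrower than the list median, 14 lay inside protein-coding genes and 2 within 1 kb of a gene end.

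Esrrb, which encodes an orphan nuclear receptor of naive pluripotency, showed both classes side by side. Its 6 members had scores of 56, 93, 101, 104, 125 and 571, and its 9 shared peaks ran from 65 to 971. The member of 571 (chr12:86498591-86499090), inside the gene, was 500 bp wide and sat 2.65 kb from the nearest ESC Oct1 peak, between shared peaks. The member of 101 was 0.71 kb from one. The members' scores thus overlapped those of the shared peaks over most of their range.

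The distance to Oct1 put the members at all scales from touching to far. The median gap to the nearest ESC Oct1 peak was 12.47 kb, and to an Oct1 peak of any of the 3 lists 9.52 kb. Within 1 kb of an ESC Oct1 peak lay 1016 members (8.50%), within 10 kb 5342 (44.7%) and within 100 kb 87.7%. At the edge of the rule, at least 3 members abutted an Oct1 peak with 0 shared bases. Those listed lay near Shf (chr2:122376061-122376620, score 180), Cdh4 (chr2:179829041-179829660, 94) and Ccdc191 (chr16:43962931-43964020, 84). On the other side, 6 peaks were kept out by an overlap of at most 10 bp, among them those near Ccdc63 (229), Inhbb (147) and Rpusd1 (126). An overlap of 100 bp or less kept out 42 peaks in all. These values describe the rule's boundary.

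Seen along genes, members lay slightly less often at gene ends than shared peaks. The midpoint lay at most 1 kb from a gene's start or end in 13.3% of the members (12.7% to 13.9%) and 16.5% of the shared peaks, a difference of -3.26 percentage points (-4.20 to -2.33), while peaks that gained Oct1 later stood at 25.3%. Over transcription starts alone, without chromosome 18, the shares were 4.43% and 8.64%, and 17.0% for peaks that gained Oct1 later. The gene-end gap was carried by the stronger peaks: by quartile of score from weakest to strongest, members had 13.9%, 14.0%, 12.5% and 11.6%, and shared peaks 13.3%, 14.1%, 16.3% and 19.2%. At 5 kb the shares were 39.8% and 40.4%, with an interval that included 0. More members than shared peaks lay inside genes (72.4% against 68.8%, a difference of 3.67 percentage points, 2.48 to 4.87), but in no quartile above the weakest did the interval of that difference exclude 0. The nearest gene of a member was protein-coding in 73.4% and a long non-coding RNA in 19.4%.

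Of 21887 protein-coding genes, 5968 (27.3%) were the nearest to at least 1 member, and 24.3% to at least 1 shared peak. The nearest gene was taken at any distance, so some sites named by a gene lay more than 100 kb from it. For 2957 genes, 49.5% of those with a member, every Oct4 peak nearest to them was a member, and 2960 had members and shared peaks both. A single member was the rule (3521 genes), but 448 genes had 5 or more and 78 had 10 or more. Rbfox3, which encodes a neuronal splicing regulator, had the most, with 35 members and 47 shared peaks. Igsf21, a synaptic adhesion gene, had 31 and 23, Septin9, a cytoskeletal GTPase gene, 27 and 31, and Zmiz1, a transcriptional coregulator gene, 24 and 15. Then came Sdk2, Camta1, Zfp469, Arhgef10l, Grm4 and Gse1 with 20 to 23 members each. Irf8, the gene of an interferon regulatory factor of blood cells, had 19 members and only 5 shared peaks, all but 1 of those members outside the gene, and Nphp4, a cilium gene, had 19 and 10. In Grm4, which encodes a glutamate receptor, members lay at 12.03 per 100 kb of gene, and in Septin9 at 10.5, against an average of 0.750 over protein-coding genes. The members at Rbfox3 ran from 50 to 319 with a median of 125, the median of all members, and over the 12 genes the median score went from 96 at Igsf21 to 168 at Sdk2.

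Most members stood apart from other members, and the rest formed runs. With gaps of up to 10 kb between neighbouring members, 7132 stood as runs of 1, and 4824 fell into 1898 runs of 2 or more. Runs of shared peaks were not counted, so whether runs are particular to members was not tested. Of 97 runs of 5 or more, 31 contained no shared peak and no Oct1 peak of any list. The longest run had 13 members over 69.5 kb at Dnah17, an axonemal dynein gene (chr11:118026351-118095850), with scores of 63 to 169. Runs of 7 members free of Oct1 lay at Col27a1 (chr4:63308261-63329890, scores 79 to 250), at Uvrag and Wnt11 (chr7:98856731-98881360, 52 to 204), at Fanca and Zfp276 (chr8:123264891-123294750, 31 to 207), at Hgfac and Rgs12 (84 to 206) and at Acy3, Aldh3b2, Aldh3b3 and Tbx10 (64 to 264). Counted over all Oct4 peaks, 44.3% of members had no other Oct4 peak within 10 kb, against 42.1% of shared peaks, a difference (2.14 percentage points, 0.836 to 3.43) that changed sign under 3 alternatives given in the closing section.

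On chromosome 11 members made up a smaller part of the Oct4 peaks than elsewhere. It carried 1254 members (10.5%) and 1695 shared peaks (16.2%), a difference of -5.67 percentage points (-6.57 to -4.78), and 7.35% of protein-coding genes. Of its Oct4 peaks 41.7% were members (39.9% to 43.5%), against 54.0% on all other chromosomes. This held along its length: in each of 13 blocks of 10 Mb the share, from 37.1% to 48.8%, lay below that of the whole list. Within score quartiles 1 to 4 the difference was smaller, at -1.74, -1.78, -3.32 and -2.47 percentage points, each with an interval below 0. A larger share of members than of shared peaks, with an interval that excluded 0, was seen on chromosomes 4, 5, 8, 9 and 15. Shares of a class add up over chromosomes, so a lower share on 1 chromosome raises those of others. Of their own Oct4 peaks, 54.8%, 54.9%, 56.5%, 56.5% and 56.6% were members, each with an interval that included the 54.0% outside chromosome 11. The X chromosome held 59 members (0.493%), beside 4.41% of protein-coding genes.

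**Figure D4:**
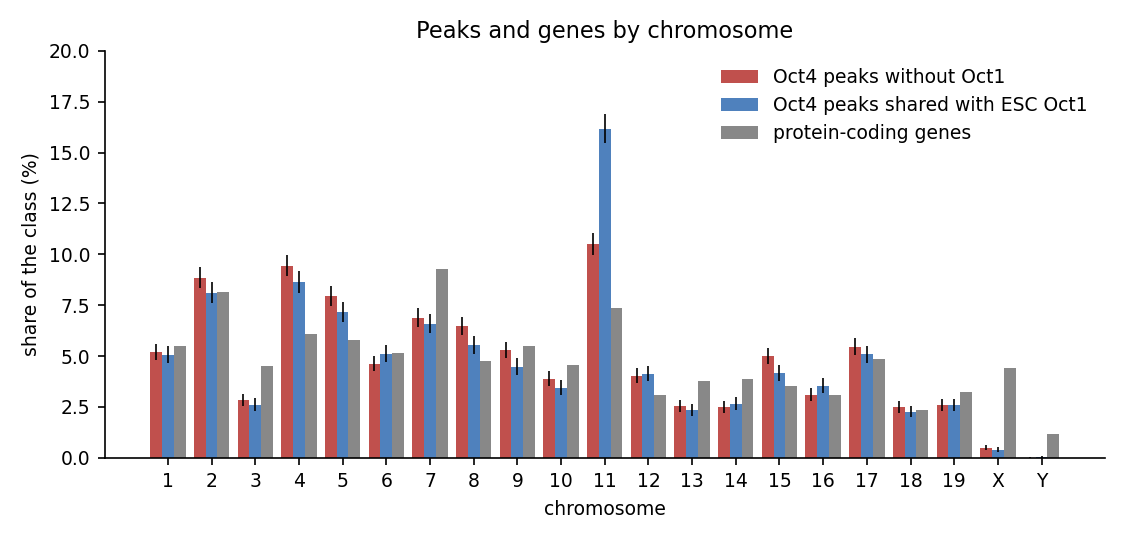
Share of member peaks (red), shared peaks (blue) and protein-coding genes (grey) on each chromosome (y axis, % of each class; bars on the peaks are exact 95% intervals of the count). Chromosome 11 holds 10.5% of members and 16.2% of shared peaks, and the X chromosome under 1% of either.

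In the list of naive pluripotency genes, 9 of 18 were nearest to a member (50%, against 27.3% of all protein-coding genes), but 12 were nearest to a shared peak. Of the 9 genes, Nanog and Tfcp2l1 had members alone, as had 49.5% of all genes with a member. Nanog, the homeodomain gene of naive pluripotency, had 1 member of score 241 (chr6:122686781-122687610, 20293 bp from the gene), and Tfcp2l1 1 of 104. Zfp42 had a member of 217 beside the shared promoter peak of 1149 whose sequence is given above. Esrrb and Tbx3 had 6 members each, but none of those of Tbx3 lay in the gene body or within 10 kb. Klf5, Dppa3, Tet2, Fgf4 and Gdf3 had shared peaks without a member. Counting only the gene body and 10 kb around it, 5 of the 18 genes held a member (27.8%, against 28.3% of all).

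Among core pluripotency genes and partners, 5 of 20 were nearest to a member (25%, against 27.3% of all). Sall1 had 7, from 76 to 434, the highest lying 201238 bp from the gene. Rest, a repressor of neuronal genes, had 1 of 290. The single Sox2 member scored 74 and lay 164039 bp away. Trim28 had 1 of 81 inside the gene. Pou5f1 itself had 3 shared peaks and no member. In the formative and primed list, 9 of 17 genes had a member (52.9%) and 9 a shared peak. Pou3f1 led with 9 members (83 to 239), followed by Dnmt3a and Lef1 with 4 each. Foxd3 (186) and Grhl2 (147) had members alone.

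Of the 4 signalling lists, 3 had fewer genes beside members than beside shared peaks. LIF, JAK and STAT genes carry the cytokine signal that keeps mouse ESCs undifferentiated. Their share was the highest of all lists, 11 of 16 (68.8%, against 27.3% of all genes), with 10 beside shared peaks. Counting members in the upper 50% of Oct4 scores alone it was 5 of 16, fewer than the 7 of 17 formative, 7 of 18 naive and 11 of 27 TGF-beta genes, against 14.3% of all genes. Lifr, which encodes the LIF receptor, had a member of 110 and Tyk2 1 of 98, both inside the genes and with no shared peak. Stat3 had 1 member of 105 at 115 bp, Ptpn11 had 4, up to 217, and Pim1 1 of 293. Of TGF-beta, Nodal and BMP genes, 14 of 27 had a member (51.9%, also against 27.3%) and 18 a shared peak. Among the ligands and their inhibitors, Nodal had a member of 279 inside the gene beside a shared peak of 157, Bmp7 had 14 members up to 254, Inhbb had 5 up to 283, and Lefty1 the 948 above. Of the receptors, Acvr1b had 5 members (74 to 204) and 1 shared peak of 280, whereas Acvr2b and Tgfbr2 had 2 members each and no shared peak. Of the Smads, Smad5 had members alone (169), and Smad3 had 4 members and 6 shared peaks.

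Of Wnt genes, 10 of 22 had a member (45.5%, against 27.3% of all genes) and 15 a shared peak, and none had members alone. Axin2, a feedback inhibitor and classical target of the pathway, had 5 members from 110 to 469. Wnt3a had members up to 283, Tcf7 284, Tcf7l2 293 and Fzd10 266 over 6 members. Of FGF and MAP kinase genes, 9 of 22 had a member (40.9%) and 13 a shared peak. Mapk3, which encodes the kinase ERK1, had 4 members of 30 to 229 and no shared peak, and Spred1 had 1 of 110. Spred2 had 3 up to 293, the highest 404416 bp away, beside 9 shared peaks. Within the gene body and 10 kb, 5 of the 22 held a member (22.7%, against 28.3% of all).

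Lineage genes varied. Trophectoderm genes had members in 12 of 18 (66.7%) and shared peaks in 13, led by Tfap2c with 10 members (highest 301, at 118508 bp). Plet1 reached 280, at 326534 bp, and Elf5 (125) and Krt8 (62) had members alone. Within the gene body and 10 kb the trophectoderm count of genes with a member fell to 4 of 18 (22.2%, against 28.3% of all). Primitive endoderm genes had members in 8 of 17 (47.1%) and shared peaks in 7. Sox17 (2 members, highest 204 at 112914 bp), Foxa2 (214), Lama1 (39) and Lamb1 (173) had members alone. Mesoderm genes had members in 8 of 24 (33.3%) and shared peaks in 9. Meox1 had 4 members (51 to 216) beside 4 shared peaks, while Kdr (84, at 137931 bp), Foxc1 (93) and Lfng (44) had members alone. Neural genes had members in 9 of 20 (45.0%) and shared peaks in 12. Pax7 had 6 members, and Zic1 (192, at 271557 bp) had members alone.

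Of 30 chromatin regulators 12 had a member (40%, against 27.3% of all genes) and 7 a shared peak (23.3%, against 24.3%). Of the 12, 7 had members alone, a share near the 49.5% of all genes with a member: Ezh1 (2 members, highest 114), Rnf2 (168), Kmt2a (2, highest 147), Tet3 (157), Chd1 (65), Hdac1 (180) and Ep300 (157). Tet1 and Tet2 were the reverse, with shared peaks and no member. Cytosolic ribosomal protein genes, listed as housekeeping genes, had a member in 3 of 20 (15.0%), none above a score of 157. Within the gene body and 10 kb this was 5 of 20 (25%, against 28.3% of all). Over all lists, 117 of 269 distinct genes had a member and 123 a shared peak, and 15 (5.58%, against 2.07% of all) had a member in the top 10% of scores. List sizes are small, and for every list but LIF, trophectoderm, TGF-beta and formative genes the exact interval of the member share included 27.3%. Counted within the gene body and 10 kb, where 28.3% of all genes held a member, only the interval of the LIF list excluded that share (12 of 16, 75%, 47.6% to 92.7%). The interval treats genes as independent, but Stat3 and Stat5a lie close together, so 1 member could count for both. Of the LIF list, Lif, Stat3, Stat5a, Stat5b, Ptpn11, Gab1 and Pim3 held shared peaks there as well as members. The TGF-beta list then stood at 10 of 27 (37.0%, 19.4% to 57.6%), the formative list at 8 of 17 (47.1%, 23.0% to 72.2%) and the trophectoderm list at 4 of 18 (6.41% to 47.6%).

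**Figure D5:**
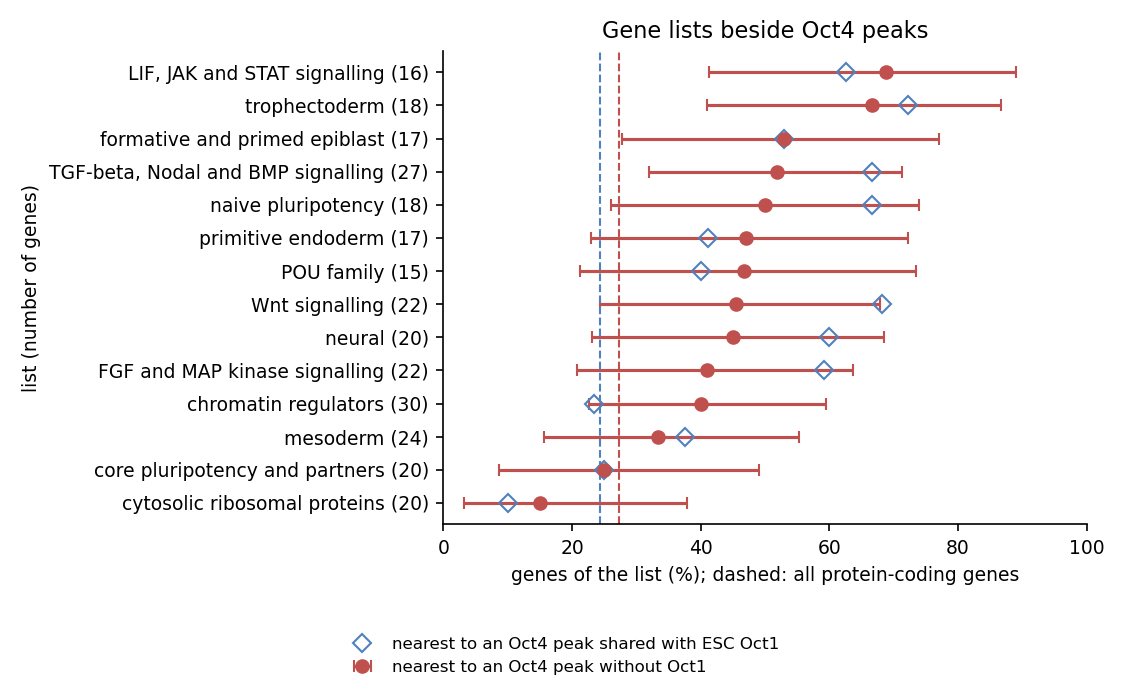
Share of each gene list (x axis, %; number of genes in brackets on the y axis) nearest to at least 1 member (red points with exact 95% intervals) or at least 1 shared peak (blue diamonds), beside all protein-coding genes (dashed red 27.3%, dashed blue 24.3%). LIF, JAK and STAT genes reach 68.8%, ribosomal protein genes 15.0%.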

How the data were processed

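Peak lists for Oct4 (ESC) and Oct1 (ESC, day 3, day 6) were used as deposited, 1 per library, with 5 columns and no header. The score of each peak is the authors' own deposited value, of unknown scale, and was used only within a list. Per the submitters' processing notes, reads were aligned with Novoalign 3.8.2 to mm10. The peak caller, its threshold and its control are not given in the sources used here, depth per peak is unknown, and the 3 input samples had no peak list used here. Per the labels' protocols, chromatin was fixed with 1% formaldehyde and sequenced as 50 bp read pairs at a stated 100 M pairs.

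Overlap (at least 1 bp) was counted with Python 3.11.15, using pandas 2.3.3 on top of numpy 2.4.6, and bedtools 2.31.1 returned the same 11956 members. Functions were tested on simulated data. Shares carry exact Clopper-Pearson 95% intervals (scipy 1.17.1), and differences Newcombe intervals from statsmodels 0.14.6. Peaks in 1 library are not replicates, so no p-value is given. For gene names and gene counts, each peak went to the protein-coding gene nearest its midpoint, at any distance. The shares at gene ends and inside genes, and the kind of the nearest gene, used all RefSeq genes. Gene ends were used because the gene table (RefSeq GRCm38.p6) has no strand. All 269 list symbols matched. Promoter and microRNA sequences are RefSeq's (GRCm38.p6). No genome was given, so peaks outside promoter windows were not read, and the promoter table held no window on chromosome 18.

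Named genes were those nearest the 20 highest-scoring members, the 12 with most members, list genes beside a member in the top 10% of scores or leading their list, list genes with members alone, and the rule's edge cases. Promoters to print were to be member windows with an octamer. As there were none, high-scoring member windows, 1 with 7 octamer letters and 2 shared windows were chosen after their values were seen. Members, lists and tests were chosen with earlier results of these data known, and the base composition and further motifs after the octamer search. Figures were drawn with matplotlib 3.10.9.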

Additional observations from a re-analysis of the deposited data

How the results depend on the processing

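No paired analysis was possible because each group had 1 library, and no replicate could be left out. Over 25 results and 136 alternative values, 101 kept their direction and side (a count, its rough size), including score, width and chromosome 11 under every alternative run. Sizes moved: chromosome 11 went from -1.74 (weakest quartile) over -3.15 (without clustered peaks) to -9.60 (upper 50% of each Oct1 list), and width from -7.88 to -35.0 (weakest to strongest quartile). All differences here are percentage points, members minus shared. Being alone turned to -0.527 when overlap needed 50% of each peak, -1.01 with the upper 50% of each Oct1 list and -1.39 in the weakest score quartile. Inside genes gave 0.904 in the upper 50% of Oct4 scores and 0.713, -0.0140 and 0.757 in quartiles 2, 3 and 4. Gene ends gave 0.542 and -0.0957 in quartiles 1 and 2, and -0.603 at 5 kb. The octamer gave -4.32 in the upper 50%, -4.85 without clustered peaks, and -7.14, -7.14, -3.19 and -4.74 in quartiles 1 to 4, with intervals that included 0 and fewer windows, but no member window held one in any of them. Few CG gave 20.1, 18.6 and 2.06 in quartiles 1, 2 and 4, with intervals that included 0, the last over 18 member windows. G and C between 50% and 65% differed by 1.62 with an interval that included 0, and by -0.135 with the upper 50% of each Oct1 list and -1.41 over touching windows. The number of members was 4439 in the upper 50% of Oct4 scores and 5293 without clustered peaks, it rose to 17529 with the upper 50% of each Oct1 list, and 71 distinct list genes (not 117) were beside a member of the upper 50%. The cause of these shifts was not tested. The transcription starts, the chromosome 11, CG and G and C alternatives and 1 window per gene were chosen after seeing the data, as were the lower 50% of Oct4 scores for the octamer (-7.14, -14.7 to -1.09) and inside genes without the 20 highest members.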

Other observations

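Members overlapped 24 of 1005 RefSeq microRNA hairpins, in 21 peaks, and shared peaks overlapped 29 hairpins in 20 peaks. At chr16:17124031-17124580 1 member (score 118) held both Mir130b and Mir301b. At chr12:109712431-109712970 another (score 136) held Mir323 and Mir758 and touched the end of Mir1197, all of the imprinted Dlk1-Dio3 cluster, and a member of score 86 held Mir127 of the same cluster, whose Mir300, Mir487b, Mir409, Mir412, Mir369 and Mir410 lay in shared peaks. A mature sequence is shown for each hairpin that lay whole in these 2 member peaks, with the seed (bases 2 to 8) in capitals.
mmu-miR-758-5p: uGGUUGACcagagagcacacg
mmu-miR-323-3p: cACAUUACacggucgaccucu
mmu-miR-130b-3p: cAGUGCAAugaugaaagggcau
mmu-miR-301b-5p: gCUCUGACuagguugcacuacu

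Of the 15 POU family genes, 7 were nearest to a member (46.7%, against 27.3% of protein-coding genes) and 6 to a shared peak. Pou3f2, a neural POU factor gene, had members of 151 and 240, the latter 100264 bp away, and no shared peak. Pou3f3 (1 of 65), Pou4f3 (2 up to 196) and Pou6f1 (2 up to 167) also had no shared peak. Pou2f2 had 5 members beside 2 shared peaks, and Pou2f1, the gene of Oct1, was nearest to no Oct4 peak.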
